A study of Mus musculus with 7 samples.

Results

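The killer cell lectin-like receptors described here are 9 genes, namely Klrk1, Klrc1, Klrc2, Klrc3, Klrd1, Klrg1, Klre1, Klri1 and Klri2. They were taken by symbol from the probes with a single gene symbol, and all 9 were measured, by 1 probe each, among 19752 genes. The first group was 4 arrays of splenic NK cells from 6-week-old male C57BL/6 mice, cultured for 8 h with interleukin 2 (IL2) at 250 U/ml. The second group was 3 arrays of NK cells of the same source, age, sex and strain, cultured for 8 h without cytokine. Both groups had been enriched by EasySep negative selection, which removes other cell types by their surface markers, and NK1.1 is named as the phenotype marker. No label gives the number of mice behind an array or says whether replicates were separate cultures, so the spread behind every p-value is that between arrays and may be technical. The values are log2 of the deposited RMA intensity, and a fold change is IL2 over untreated.

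These receptors are type II membrane proteins with a C-type lectin-like domain, which NK cells use to sense ligands on other cells. NKG2D (Klrk1) activates NK cells when it binds stress-induced relatives of MHC class I. CD94 (Klrd1) forms heterodimers with NKG2A (Klrc1), which inhibits, or with NKG2C and NKG2E (Klrc2, Klrc3), which activate, and these bind Qa-1b, a non-classical MHC class I molecule. KLRG1 is an inhibitory receptor for cadherins and marks mature NK cells. KLRE1 has no signalling motif of its own, and in the rat it pairs with KLRI1 to inhibit or with KLRI2 to activate.

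Of the 9 receptor genes, 1 passed the test, Klrg1, which was 1.87-fold higher with IL2. Klrk1 and Klrc1 were 2.08-fold and 1.99-fold higher and Klri2 1.71-fold higher, but none of these passed after correction over all genes. Klrd1, Klrc2 and Klrc3 had fold changes of 1.06, 1.07 and 1.09, with arrays of both groups mixed. Of the 9, 1 was called higher, against 2.08% of all genes tested, and 0 of 9 were called lower, against 0.901% (limma, Benjamini-Hochberg adjusted p under 0.05), which makes 11.1% of the 9 and 2.98% of all genes called in either direction. At an unadjusted p under 0.05, limma had 5 of the 9 higher, against 8.81% of all genes, and 0 lower, against 4.67%. For 5 of the 9, every IL2 array lay above every untreated array, as for 6.25% of all genes, and for 0 of the 9 every IL2 array lay below, as for 3.38% of all genes, so that 5 of the 9, against 9.63% of all genes, had the groups apart either way. All 9 fitted log2 fold changes were positive, with a median of 0.46, beside a median of -0.01 over all genes.

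**Figure D1:**
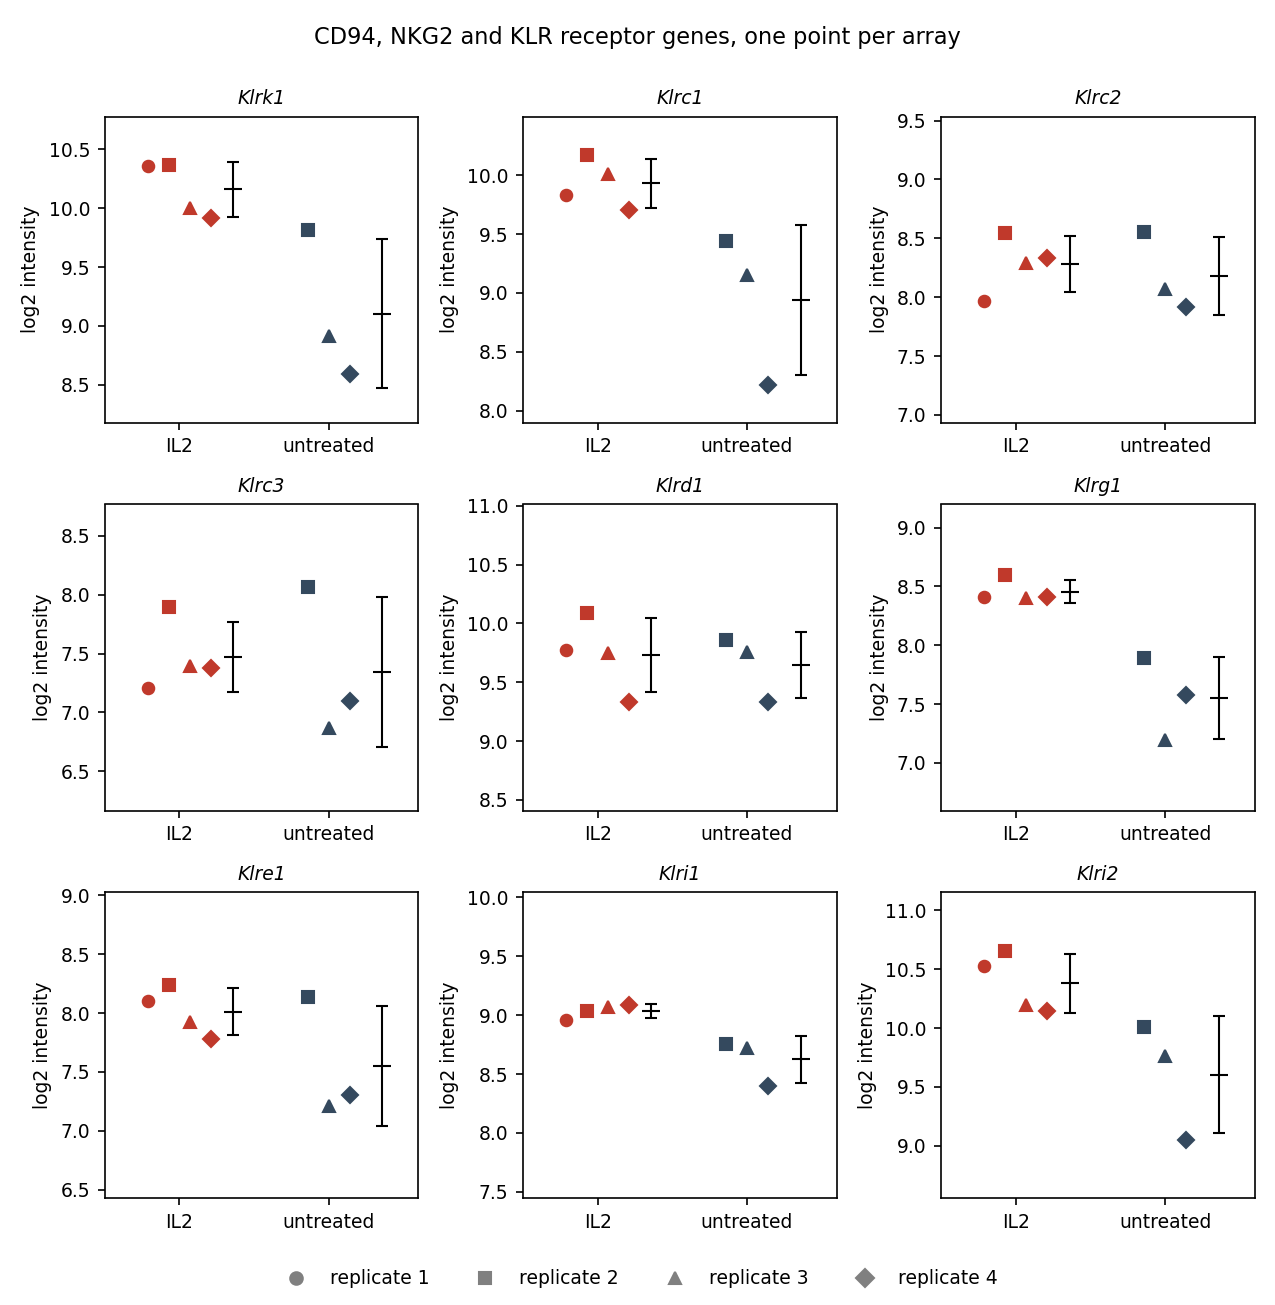
Log2 RMA intensity of each receptor gene (vertical axis, the same span of 2.6 log2 units in every panel) on 4 IL2 and 3 untreated arrays. Points are arrays, with the replicate number as the symbol, and the bar is the mean with its SD. The IL2 arrays lie above all untreated arrays for Klrk1, Klrc1, Klrg1, Klri1 and Klri2, and the groups overlap for Klrc2, Klrc3, Klrd1 and Klre1.

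The untreated arrays were unequal. Untreated replicate 2 gave the highest untreated value for all 9 receptor genes, and untreated replicate 4 the lowest for 6 of them. IL2 replicate 2 gave the highest IL2 value for 8 of the 9. The SD over untreated arrays exceeded that over IL2 arrays for 8 of the 9, with SDs of 0.20 to 0.64 among untreated and 0.06 to 0.31 among IL2 arrays. The sample titles come in 2 styles: replicates 3 and 4 state the time (2 IL2 and 2 untreated arrays), and replicates 1 and 2 do not (2 IL2 arrays and untreated replicate 2). For 8 of the 9 genes the difference was smaller in the style without the time, which has a single untreated array. A test of the interaction between IL2 and title style called none of the 9 (lowest limma adjusted p = 0.386). Without untreated replicate 2 the median of the 9 log2 fold changes was 0.75, and 2 genes, Klrk1 and Klrg1, were called higher. Of all genes, 2.14% were called higher in that fit.

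Markers of several cell types moved over the same arrays. Of 13 NK identity markers measured, 10 were called higher and 0 lower, with a summed intensity of 19357 to 23950 on IL2 arrays, against 5906 to 10246 on untreated arrays. Among these, Klrb1c, which encodes NK1.1, had mean log2 intensities of 10.26 ± 0.36 with IL2 (SD, n = 4) and 8.55 ± 0.43 in untreated cells (n = 3). Ncr1, which encodes NKp46, had 11.46 ± 0.07 with IL2 and 9.28 ± 0.17 in untreated cells. The NK identity sum was highest in replicate 2 of each group, at 23950 (IL2) and 10246 (untreated), as most receptor genes were. Its lowest untreated value, 5906, was in replicate 3. Of 12 macrophage and monocyte markers, 6 were called lower and 0 higher, with sums of 6013 to 8854 on IL2 arrays and 16898 to 18739 on untreated arrays. Of 10 neutrophil markers 1 was lower, with sums of 5441 to 7580 (IL2) and 9370 to 12229 (untreated), and of 9 B cell markers 1 was lower, with sums of 13252 to 14009 (IL2) and 15594 to 17855 (untreated).

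T cells and type 1 innate lymphoid cells can carry some of these receptors too. Of 11 T cell markers, limma called 0 either way, and their sums of 1978 to 3461 on IL2 arrays and 2168 to 3316 on untreated arrays overlapped. The T cell sums differed by title style. Without the time they were 1978 and 2119 (IL2) and 2168 (untreated), and with the time 3461 and 3443 (IL2) and 2792 and 3316 (untreated). Of 4 markers of type 1 innate lymphoid cells, 1 (Il7r, the interleukin 7 receptor chain) was lower, with sums of 602 to 830 (IL2) and 1393 to 1481 (untreated). The other 3 were not called, with log2 fold changes of 0.08 (Cd200r1), -0.05 (Cxcr6) and -0.42 (Itga1) and overlapping groups. The gap in the sums lies mostly in Il7r. Of 8 dendritic cell markers 1 (Cd209a, log2 fold change -1.71) was lower, with sums of 1404 to 1519 (IL2) and 1821 to 2250 (untreated). Among these 8, 4 had a positive log2 fold change. Of 4 erythroid markers 0 were called either way. No marker is at 0, because RMA gives values above 0 for every probe. The part of these shifts in the receptor values was not tested, and in such bulk RNA fewer cells of a type and less RNA per cell cannot be told apart.

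**Figure D2:**
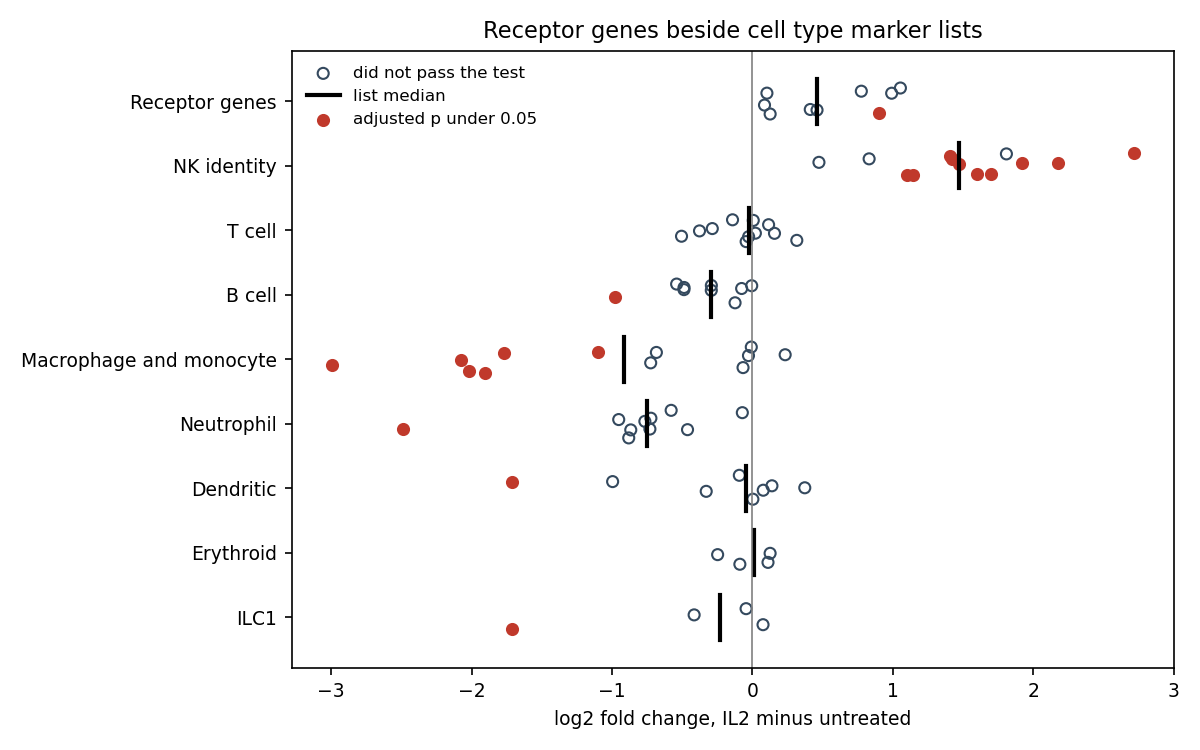
Log2 fold change with IL2 (horizontal axis) of the 9 receptor genes and of each cell type marker list. Points are genes, filled where the limma adjusted p was under 0.05, and black bars are list medians, which were 0.46 for the receptor genes, 1.47 for the NK identity markers and -0.91 for the macrophage and monocyte markers.

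Klrk1, the activating receptor NKG2D, had the largest fold change of the 9. Its log2 intensities were 10.36, 10.37, 10.00 and 9.91 in IL2 replicates 1 to 4, against 9.82, 8.91 and 8.59 in untreated replicates 2 to 4. All IL2 arrays were higher, but the nearest untreated array, replicate 2, was within 0.1 of the lowest of them. The log2 fold change was 1.05 (SE 0.28, limma adjusted p = 0.118). With title style as a block it was 0.94 (limma adjusted p = 0.0246), and it was 1.21 within the style with the time and 0.55 within the other. Without untreated replicate 2 it was 1.41 and passed the test (limma adjusted p = 0.0179).

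NKG2D has no signalling motif and works through the adaptors DAP10 (Hcst) and, in the mouse, also DAP12 (Tyrobp), which several activating NK receptors share. Hcst had log2 intensities of 7.16, 7.16, 7.24 and 7.31 in IL2 replicates 1 to 4, against 7.14, 7.16 and 6.95 in untreated replicates 2 to 4. Tyrobp had 10.75, 11.05, 11.05 and 11.10 with IL2, against 11.19, 11.16 and 11.04 in untreated cells. The Hcst value was identical, at 7.16299, on IL2 replicates 1 and 2 and untreated replicate 3, and the reason was not tested. The groups overlapped for both adaptors. Their log2 fold changes were 0.13 (SE 0.09, limma adjusted p = 0.605) for Hcst and -0.14 (SE 0.10, limma adjusted p = 0.659) for Tyrobp. The log2 distance of Klrk1 over Tyrobp was 1.20 larger with IL2 than in untreated cells, with the groups apart, and over Hcst it was 0.92 larger, with overlap. The exact two-sided permutation p-values were 0.0571, the smallest that 4 against 3 arrays allow, and 0.114 (0.137 and 0.196 after Benjamini-Hochberg over 12 gene pairs).

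Of the other genes of these receptor pathways, 24 of 35 listed had a probe with a single symbol, and the other 11, such as the Qa-1b gene H2-T23 and the kinase gene Lck, are not analysed here. Limma called 0 of the 24 higher and 1 lower, against 2.08% and 0.901% of all genes. At an unadjusted p under 0.05, limma had 3 higher and 2 lower, against 8.81% and 4.67% of all genes. Their median log2 fold change was 0.03. The gene called was H60b, a ligand of NKG2D. Its mean signal lay above that of only 29.2% of all genes, and no detection calls were at hand. H60b had log2 intensities of 5.91, 5.82, 5.84 and 5.70 in IL2 replicates 1 to 4, against 6.63, 6.46 and 6.53 in untreated replicates 2 to 4. All IL2 arrays were lower, by 0.72 on the log2 scale on average (log2 fold change -0.72, SE 0.08, limma adjusted p = 0.00497). Within the style with the time the log2 fold change was -0.73 and the call was lost (limma adjusted p = 0.084). That fit called 22 of all genes lower, against 178 over the 7 arrays. Within the other style, with 1 untreated array, the log2 fold change was -0.77. The ligand genes Raet1d, Cdh1 and Cdh2 had log2 fold changes of -0.20, 0.04 and 0.13, none called. The Cdh1 value was identical, at 7.09345, on IL2 replicates 3 and 4 and untreated replicates 2 and 4. That of Cdh2 was identical, at 5.13037, on IL2 replicates 1 and 2 and untreated replicate 3.

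Among signalling genes none passed the test. Zap70 and Syk encode the tandem-SH2 kinases that act below DAP12. Zap70 averaged 8.43 ± 0.42 with IL2 (SD, n = 4) and 7.59 ± 0.29 in untreated cells (n = 3), a log2 fold change of 0.84 (limma adjusted p = 0.145). Syk averaged 9.59 ± 0.13 with IL2 and 10.30 ± 0.33 in untreated cells, a log2 fold change of -0.71 (limma adjusted p = 0.065). For both the groups were apart, and both passed the test after a second quantile normalization, at limma adjusted p-values of 0.0337 and 0.00419. Zap70 also passed with title style as a block (log2 fold change 0.91, limma adjusted p = 0.0474), and Syk without untreated replicate 3 (-0.90, limma adjusted p = 0.024) and with only the brighter genes of the table tested (limma adjusted p = 0.0322), a set without H60b. Syk is also abundant in B cells and myeloid cells, whose marker sums were lower on IL2 arrays. The part of those cells in the Syk values was not tested. Ptpn6, the phosphatase SHP-1 that inhibitory receptors recruit, had a log2 fold change of 0.09 (SE 0.11), with overlapping groups.

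The fitted fold changes of the CD94 and NKG2 chain genes were unequal, and none of these genes passed the test. Klrd1, the shared partner CD94, had log2 intensities of 9.77, 10.09, 9.74 and 9.33 in IL2 replicates 1 to 4, against 9.86, 9.75 and 9.33 in untreated replicates 2 to 4. The groups overlapped almost entirely. The log2 fold change was 0.09 (SE 0.20, limma adjusted p = 0.912), with a 95% interval of the fold from 0.775 to 1.45. That interval does not show that Klrd1 was unchanged. Its upper end lies below the fold of 2.08 fitted for Klrk1, but it overlaps the Klrk1 interval of 1.32 to 3.26.

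Klrc1, the inhibitory chain NKG2A, had log2 intensities of 9.83, 10.17, 10.01 and 9.70 in IL2 replicates 1 to 4, against 9.44, 9.16 and 8.22 in untreated replicates 2 to 4. All IL2 arrays were above all untreated arrays, and untreated replicate 4 was the lowest by far. The log2 fold change was 0.99 (SE 0.27, limma adjusted p = 0.133), with a 95% interval of the fold from 1.28 to 3.09. It was 1.17 among arrays whose titles give the time and 0.56 among the others, it was 0.63 without untreated replicate 4 (limma adjusted p = 0.162), and with title style as a block 0.93 (limma adjusted p = 0.119).

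Klrc2 and Klrc3, the activating chains NKG2C and NKG2E, were close to each other in their differences. Klrc2 had log2 intensities of 7.97, 8.54, 8.29 and 8.33 in IL2 replicates 1 to 4, against 8.56, 8.07 and 7.91 in untreated replicates 2 to 4. Klrc3 had 7.21, 7.89, 7.40 and 7.38 with IL2, against 8.07, 6.87 and 7.10 in untreated cells. For both the highest of the 7 arrays was untreated replicate 2, and the groups overlapped. Their log2 fold changes were 0.10 (SE 0.18, limma adjusted p = 0.886) and 0.13 (SE 0.29, limma adjusted p = 0.914), with 95% intervals of the fold from 0.798 to 1.45 and from 0.682 to 1.75. The sign depended on the title style, at 0.32 and 0.41 with the time and -0.30 and -0.52 without it. Klrc1, Klrc2 and Klrc3 are close paralogs, so cross-hybridisation between their probes cannot be told from these values.

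The balance between chains was compared as the log2 difference between 2 genes on the same array, for 12 pairs. The difference of Klrc1 over Klrd1 was 0.06, 0.08, 0.27 and 0.38 in IL2 replicates 1 to 4, against -0.42, -0.60 and -1.11 in untreated replicates 2 to 4. The groups were apart, and the balance was 0.91 higher with IL2. The balance of Klrc1 over Klrc2 was 0.89 higher, also with the groups apart, and that of Klrc1 over Klrc3 was 0.87 higher, with overlap. Klrc2 over Klrd1 and Klrc3 over Klrd1 differed by 0.02 and 0.04, with overlap. Of the 12 pairs, 5 had the groups apart, each at the smallest exact permutation p of 0.0571 (two-sided, 0.137 after Benjamini-Hochberg), so this test cannot reach 0.05 for any pair with these arrays. The other pairs with the groups apart were Klrk1 over Klrd1, 0.97 higher with IL2, and Klrg1 over Klrd1, 0.81 higher.

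**Figure D3:**
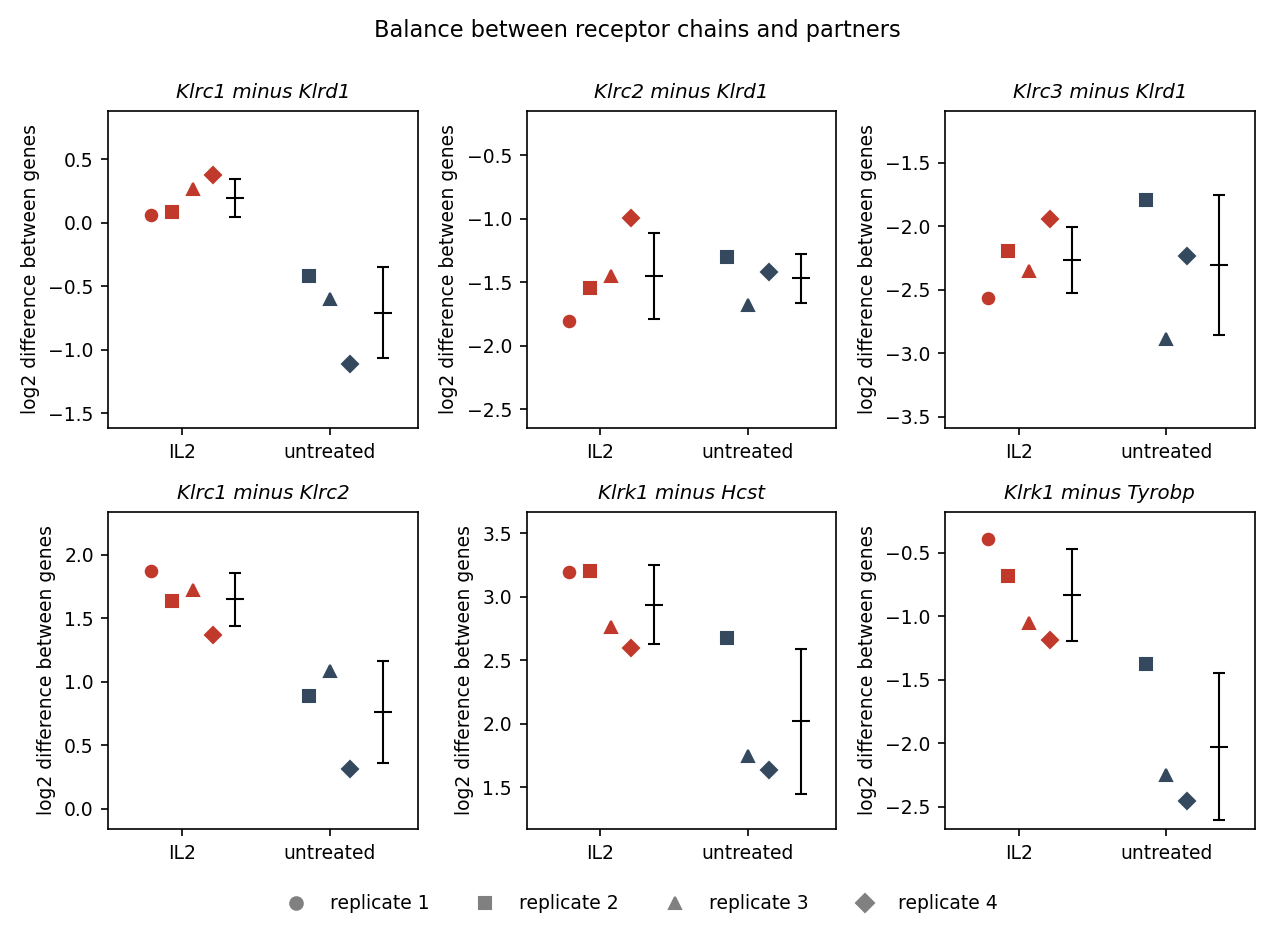
Log2 difference between the intensities of 2 genes on the same array (vertical axis, the same span in every panel), for 6 of the 12 pairs, on IL2 and untreated arrays. Points are arrays, with the replicate number as the symbol, and bars are the mean with its SD. The offset from 0 depends on the probes, and only the shift between groups is read, which is 0.91 for Klrc1 minus Klrd1 and 0.02 for Klrc2 minus Klrd1.

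In the mouse annotation (RefSeq, GRCm38.p6) 8 of the 9 genes are consecutive protein-coding genes of chromosome 6, in the order Klre1, Klrd1, Klrk1, Klrc3, Klrc2, Klrc1, Klri1 and Klri2. Klrg1 lies elsewhere on the same chromosome. The log2 fold changes in that order were 0.46, 0.09, 1.05, 0.13, 0.10, 0.99, 0.41 and 0.78, so that Klrc3 and Klrc2 lie between the 2 genes with the largest fold changes. Promoter windows from RefSeq, 250 bases before to 50 after an annotated start, were at hand for 6 of the 9 (Klrk1, Klrc1, Klrc2, Klrc3, Klre1 and Klri1). The bases upstream of the starts are shown for the paralogs Klrc2 and Klrc3, and then for their neighbour Klrc1 and for Klrk1. These were chosen with the fold changes known, and a link between promoter sequence and fold change was not tested.

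Capitals in the first pair of sequences mark bases that differ in the alignment of Klrc2 and Klrc3 and both stretches stop short of every annotated start (chr6:129660597-129660806 and chr6:129643329-129643538, GRCm38.p6, minus strand). Capitals in the Klrk1 sequence mark a match to the RUNX motif (chr6:129623865-129624114, minus strand), and the Klrc1 sequence has none (chr6:129678974-129679223, minus strand).
Klrc2: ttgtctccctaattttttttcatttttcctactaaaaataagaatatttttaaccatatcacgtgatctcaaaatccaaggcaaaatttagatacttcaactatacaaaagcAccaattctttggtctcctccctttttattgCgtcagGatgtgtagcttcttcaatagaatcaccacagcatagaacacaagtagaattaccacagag
Klrc3: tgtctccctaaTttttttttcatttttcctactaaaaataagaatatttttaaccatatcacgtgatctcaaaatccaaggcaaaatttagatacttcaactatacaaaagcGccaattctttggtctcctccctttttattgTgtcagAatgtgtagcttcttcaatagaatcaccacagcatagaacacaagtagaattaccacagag
Klrc1: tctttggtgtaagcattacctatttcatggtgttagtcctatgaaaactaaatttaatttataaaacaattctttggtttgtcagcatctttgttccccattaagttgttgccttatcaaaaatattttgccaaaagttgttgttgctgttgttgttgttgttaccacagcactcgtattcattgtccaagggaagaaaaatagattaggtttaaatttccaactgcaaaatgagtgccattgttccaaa
Klrk1: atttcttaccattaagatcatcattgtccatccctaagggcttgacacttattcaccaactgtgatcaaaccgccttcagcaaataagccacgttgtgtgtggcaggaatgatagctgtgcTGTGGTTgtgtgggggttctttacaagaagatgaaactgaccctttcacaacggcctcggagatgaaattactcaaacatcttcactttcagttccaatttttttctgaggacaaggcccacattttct

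The Klrc2 and Klrc3 stretches were identical at 206 of 209 aligned bases (98.6%), with 3 mismatches and 1 further T in a run of T in Klrc3. Their longest identical run was 100 bases, whereas the longest run that either shared with the Klrc1 stretch was 12 bases. The windows were searched on both strands for motifs of factors that act in NK cells. The STAT motif TTCNNNGAA was in no window of the 6 genes, against 8.3% of 32841 mouse promoter windows. The RUNX motif TGTGGTT was in Klrk1 and Klre1, against 5.27% of windows. The T-box motif TCACACC (3.98% of windows) and the ETS motif ACAGGAAG (3.57%) were in none of them. Other forms of these motifs, such as a shorter RUNX core, were not searched, so a window without a match may hold one. The identities and motif matches describe letters in a short window and say nothing of binding or of the fold changes.

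**Figure D4:**
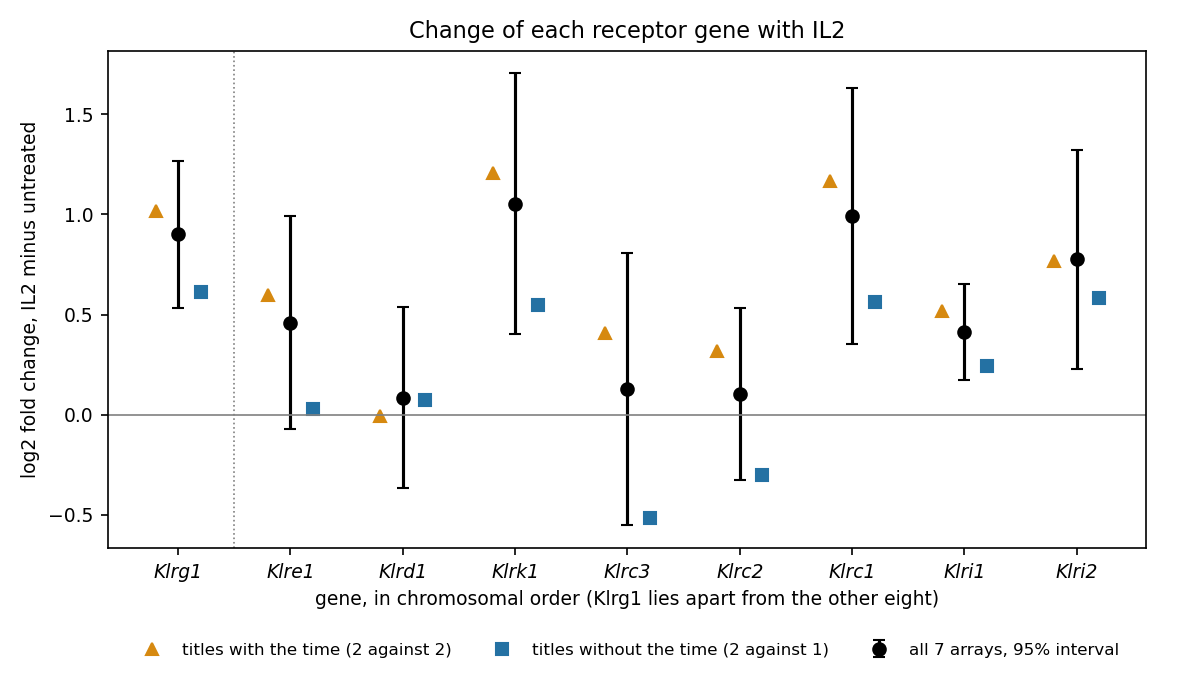
Log2 fold change with IL2 (vertical axis) of the 9 receptor genes in chromosomal order (horizontal axis, with Klrg1 set apart by the dotted line). Black points are the fit over 7 arrays with its 95% interval, triangles the difference within arrays whose titles give the time, and squares within those whose titles do not. Klrc3 and Klrc2, at 0.13 and 0.10, stand between Klrk1 at 1.05 and Klrc1 at 0.99.

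Klrg1, the inhibitory receptor for cadherins, was the 1 gene of the 9 that passed the test, though Klrk1 and Klrc1 had larger fold changes. Its log2 intensities were 8.41, 8.60, 8.40 and 8.41 in IL2 replicates 1 to 4, against 7.89, 7.19 and 7.58 in untreated replicates 2 to 4. The IL2 arrays were tight, 3 of them within 0.01 of each other, and all lay above the untreated arrays. The log2 fold change was 0.90 (SE 0.16, limma adjusted p = 0.0265), with a 95% interval of the fold from 1.45 to 2.40. The call was lost when IL2 replicate 2, 3 or 4 or untreated replicate 4 was left out (limma adjusted p between 0.0909 and 0.111). It was also lost within the style with the time, at a log2 fold change of 1.02 (limma adjusted p = 0.0989). That fit called 81 of all genes higher, against 410 over the 7 arrays. Within the style without the time, with 1 untreated array, the log2 fold change was 0.61. With title style as a block it was 0.86 (limma adjusted p = 0.0206). Its ligand genes Cdh1 and Cdh2, for E-cadherin and N-cadherin, are given above.

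The genes whose pattern over the 7 arrays was nearest to that of Klrg1 were Stip1, a co-chaperone gene, and Zdhhc21, a palmitoyltransferase gene. After each gene was centred on its own mean, their root mean square distances from Klrg1 were 0.0718 and 0.0721 on the log2 scale. Their log2 fold changes were 0.85 and 0.94, which are a description, since they were chosen for being like a gene that passed the test.

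The KLRE1 and KLRI genes were all higher on average and none passed the test. Klri2, the chain that activates in the rat, had log2 intensities of 10.53, 10.65, 10.20 and 10.14 in IL2 replicates 1 to 4, against 10.01, 9.76 and 9.05 in untreated replicates 2 to 4. Klri1, the inhibitory chain in the rat, had 8.96, 9.03, 9.07 and 9.09 with IL2, against 8.75, 8.72 and 8.40 in untreated cells. For both the groups were apart, and untreated replicate 4 was lowest. The log2 fold changes were 0.78 (SE 0.24, limma adjusted p = 0.175) for Klri2 and 0.41 (SE 0.10, limma adjusted p = 0.0991) for Klri1. Without untreated replicate 4 that of Klri2 was 0.50 (limma adjusted p = 0.351).

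Klre1, the partner of both KLRI chains in the rat, had log2 intensities of 8.10, 8.24, 7.93 and 7.78 in IL2 replicates 1 to 4, against 8.14, 7.21 and 7.31 in untreated replicates 2 to 4. Untreated replicate 2 lay among the IL2 arrays and the other untreated arrays below them. The log2 fold change was 0.46 (SE 0.23, limma adjusted p = 0.471), and it was 0.75 without untreated replicate 2 (limma adjusted p = 0.0514) and 0.29 without untreated replicate 3 (limma adjusted p = 0.822). Within the title styles it was 0.60 with the time and 0.03 without it. The balance of Klre1 over Klri1 differed by 0.05, of Klre1 over Klri2 by -0.32 and of Klri1 over Klri2 by -0.36, each with overlapping groups (exact two-sided permutation p = 0.914, 0.286 and 0.229).

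The 9 receptor genes had smaller differences than the mean of the NK identity markers. The mean log2 value of the 13 markers was 10.03 to 10.33 on IL2 arrays, against 8.36 to 9.02 on untreated arrays, a difference of 1.52. After subtracting the marker mean on each array, the shifts lay between -1.44 for Klrd1 and -0.47 for Klrk1, with Klrc1 at -0.53 and Klrg1 at -0.62. On that scale 7 of the 9 lay lower on every IL2 array than on any untreated array, but so did 97.5% of all genes, so the count says nothing particular about the receptors. Klrk1 and Klrc1 were the exceptions, and their shifts were -0.69 and -0.85 without untreated replicate 4, and that of Klrc1 was -0.27 without untreated replicate 3. Without untreated replicate 2 the shift of Klrk1 was -0.30. Of the 13 markers, 10 were themselves called higher with IL2. Whether that was a change within NK cells or in their share of the cells was not tested.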

How the data were processed

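The deposited table holds intensity values on a linear scale for 24922 probes (transcript clusters) of Affymetrix Mouse Gene 1.0 ST arrays, which the authors made by RMA in Affymetrix Power Tools, as the submitters' processing notes name them. Their versions and the set of arrays normalized together are not given in the sources used here. Detection calls are not in the file. The number of arrays, 4 and 3, limits the precision. From the file, log2 values were taken with no offset. The 21425 probes with 1 symbol in the platform annotation gave 19752 genes, with the brightest probe of each kept and no filter on signal. The fit was limma 3.58.1 (R 4.3.3) with 1 factor over all genes, default eBayes, a Benjamini-Hochberg threshold of 0.05, and 95% intervals that are not adjusted. Pairs of genes were compared by exact permutation over the 35 arrangements. The 9 members and all lists were chosen with earlier results of these data known. All members were named, with every called gene of a list of adaptors, ligands and signalling genes and the 2 genes nearest in pattern to each called member. Zap70, Syk, Raet1d, Cdh1 and Cdh2, and Il7r, Cd200r1, Cxcr6, Itga1 and Cd209a among the markers, were named after their values were seen. On simulated data of the same size (19752 genes) the fit recovered 85% of genes changed by 1 and 98% of those changed by 2 on the log2 scale. Of its calls there, 5.18% were unchanged genes. The simulated noise was independent between arrays and equal in both groups. For 8 of the 9 receptor genes the SD was larger among untreated arrays, so these shares may not hold for them. Alternatives were a block for title style or for replicate number, fits within each title style, a second quantile normalization, median centring, eBayes with trend and robust, array weights, the mean of all probes, bright genes only, and each array left out. An interaction with title style was added after the data were seen. No array or column was left out. Protein sequences were not used here.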

Additional observations from a re-analysis of the deposited data

Results flagged for a closer look

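In the IL2 group of 4 arrays, the highest log2 intensity of Klrg1, 8.60 in replicate 2, stood apart from the next, 8.41, since the other arrays were nearly equal. For Tyrobp the lowest IL2 value, 10.75 in replicate 1, stood apart from the next, 11.05. These were 2 of 25 groups of values checked by Dixon's criterion, of which chance flags about 1 in 20.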

How the results depend on the processing

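The count of receptor genes called higher was 1. It was 2 with title style as a block, against 2.93% of all genes. It was 0 within the style with the time, against 0.410% (7 at an unadjusted limma p under 0.05, against 14.3%). With each array left out in turn it was 0 to 2. The count was 2 without untreated replicate 2, against 2.14% of all genes. It was 0 without IL2 replicate 2, 3 or 4 or untreated replicate 4, against 0.678% to 0.820% of all genes. The median log2 fold change of the 9 ranged from 0.34 to 0.75 with 1 array left out. Same-numbered arrays did not pair throughout: the correlations of their deviations from group means were 0.46, -0.30 and 0.31 for replicates 2, 3 and 4. When this number was fitted as a block, 3 receptor genes and 1 pathway gene (Zap70) were called higher, as were 2.80% of all genes. The receptor genes were Klrk1 (0.99, limma adjusted p = 0.0438), Klrc1 (1.02, limma adjusted p = 0.0418) and Klrg1 (0.92, limma adjusted p = 0.0298). Replicate number 1 has no untreated array, so IL2 replicate 1 did not bear on the fold changes of that fit. Pathway genes called higher were 1 with title style as a block (2.93% of all genes) and 1 after a second quantile normalization (3.51% of all genes). Those called lower were 0 within the style with the time, 3 after that normalization, and 1 to 2 with 1 array left out. There were 2 without untreated replicate 3, Syk being the second. Uncalled values near 0 changed sign: Klrd1 was -0.0058 within the style with the time, -0.051 after a second quantile normalization and -0.073 to 0.22 with 1 array left out. Klrc2 was -0.30 and Klrc3 -0.52 within the style without the time, and -0.031 to 0.29 and -0.11 to 0.49 with 1 array left out. Ptpn6 was -0.10 in that style and -0.046 after normalization. With 1 array left out, the balance of Klrc2 over Klrd1 was -0.14 to 0.14, of Klrc3 over Klrd1 -0.25 to 0.30, and of Klre1 over Klri1 -0.17 to 0.28. Klrk1, Klrc1, Klrg1, Klre1, Klri1 and Klri2 stayed positive under all 17 alternatives, and Klrg1 was called in 11 of them. Over all genes, 410 were higher and 178 lower, against 694 and 577 after a second quantile normalization, 81 and 22 within the style with the time, 0 and 0 within the other (1 untreated array, 2630 genes at an unadjusted limma p under 0.05), and 134 to 517 higher and 65 to 152 lower with 1 array left out. The cause of these changes was not tested.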
